A study of Drosophila melanogaster with 4 samples.

Results

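DREF binding sites that were listed for a total population of Kc167 cells but not for mitotic cells were described on chromosome arms 2L, 3L, 3R and X of Drosophila melanogaster. A site belonged to this set when its peak in the total list shared not 1 base pair with any peak of the mitotic list. The rule gave 528 unmatched peaks among the 1255 total peaks of these 4 arms (42.1%) and left 727 shared peaks. The whole total list held 1937 peaks. Since the rule used the contrast between the lists, neither this count nor the absence of a mitotic peak is a result.

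Kc167 is an embryonic Drosophila cell line, kept here in serum-free CCM3 medium. Chromatin crosslinked with formaldehyde was immunoprecipitated with a rabbit polyclonal antibody against DREF and sequenced (ChIP-seq). The total group and the mitotic group had 2 libraries each, with no genotype or drug treatment named for either. How cells in mitosis were collected, and how pure they were, is not stated in the labels. Each group is represented by 1 deposited peak list without values per library or read counts. No test between the groups was therefore possible, and everything below describes these lists. Whether reads of the mitotic libraries also went into the total list is not stated, and depth is unknown.

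DREF is a DNA-binding protein with a zinc finger. It recognizes the DNA replication-related element, a short sequence at promoters of many genes for DNA replication and cell growth. Its sites often coincide with those of insulator proteins such as BEAF-32, which mark borders between chromatin domains. During mitosis chromosomes condense, many transcription factors leave the chromatin and some stay at a part of their sites, so sites present in one list and missing from the other are of interest for which binding persists. No genome of the build of these lists was used, so no site is assigned to a gene, exon or intron and no sequence is shown. Coordinates follow the sequence names of Release 5 (dm3), with starts counted from 1.

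The unmatched sites were mostly weak sites of the total list, but many had scores at which other sites did have a mitotic peak. The score is a number per peak that the authors deposited without a unit, and it was used to rank peaks within a list. Unmatched peaks scored 1.8 to 8.27, with a median of 4.45 (interquartile range 3.79 to 5.04), against a median of 7.31 for shared peaks. A part of them reached the upper part of the list, and 53 of the 528 (10.0%) lay above 5.67, the median of all total peaks on the 4 arms.

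The scores of both classes overlapped between 3.25, the weakest shared peak, and 8.27, the strongest unmatched one. Below this range lay 52 total peaks, all unmatched by that definition, and above it 268, all shared. Within it were 476 unmatched and 459 shared peaks, so score alone did not separate the classes there. The share unmatched was 90.0% (54 of 60, exact Clopper-Pearson 95% interval 79.5 to 96.2%) at scores from 3 to 3.5 and 72.2% (117 of 162, 64.7 to 79.0%) from 4.5 to 5. It was 41.4% (48 of 116, 32.3 to 50.9%) from 5.5 to 6 and 8.20% (5 of 61, 2.72 to 18.1%) from 6.5 to 7. Such intervals reflect counting error alone, as if peaks were independent of each other. The decline was gradual over about 4 score units.

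**Figure D1:**
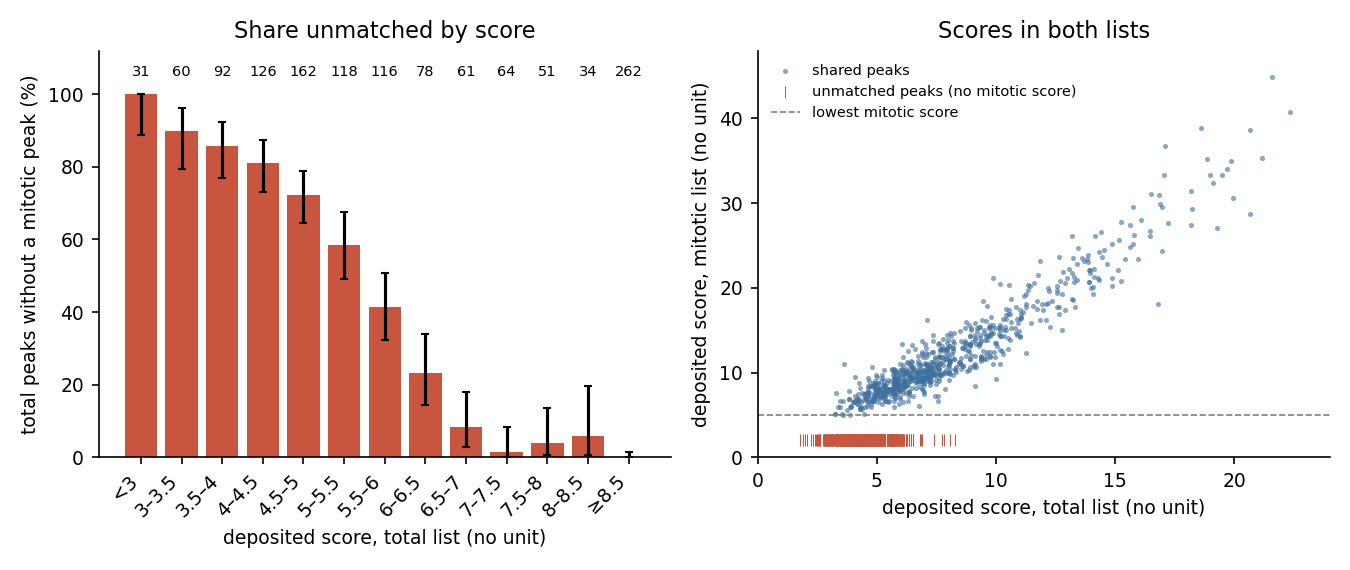
Left, share of total peaks without a mitotic peak (percent) by deposited score of the total list on 2L, 3L, 3R and X, with exact 95% intervals and the number of total peaks above each bar. Right, score in the mitotic list against score in the total list for the 727 shared peaks, with the scores of the 528 unmatched peaks as ticks at the bottom. The share falls from 90.0% at scores of 3 to 3.5 to 8.20% at 6.5 to 7. The dashed line marks the lowest mitotic score on these arms, 4.95, and shared peaks with total scores of 4.5 to 5 lie between 5.9 and 10.71 in the mitotic list.

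The strongest unmatched site was found on 3R (17313174 to 17314179, score 8.27). The next, also on 3R, spanned 18312360 to 18313439 (score 8.06) and 206476 to 207478 (score 7.83). On 3L the strongest lay at 3070388 to 3071433, with a score of 7.75. It was followed by sites at 4405607 to 4406543 (score 6.53) and 8387784 to 8388668 (score 6.36). The strongest of these 3L sites was in a score range that was almost entirely shared, since 49 of the 51 total peaks scoring from 7.5 to 8 had a mitotic peak. On the X the strongest were at 13739479 to 13740456 (score 7.4), at 22226197 to 22227210 (score 6.82) and at 20127974 to 20128984 (score 6.5). On 2L they were at 7998376 to 7999256 (score 6.91), and, with 6.42 each, at 6050285 to 6051336 and 6722824 to 6723887. Of these 12 sites only the one on 3L at 4405607, with a gap of 1622 bp, and the strongest one on 3R, with a gap of 4899 bp, had a shared peak closer than 5 kb.

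The weakest shared peaks show the other side of the same boundary. They lay on 2L at 870445 to 872136 (total score 3.25, mitotic score 5.1), on 3L at 647645 to 649750 (3.25 and 5.14) and on 3L at 22448665 to 22449679 (3.3 and 7.62). The first and the second were wide, with 1692 and 2106 bp, and their mitotic scores were close to 4.95, the lowest mitotic score on the 4 arms. Shared peaks with total scores from 4.5 to 5 had a median mitotic score of 7.62 and a lowest one of 5.9. Those from 3.5 to 4 had a median of 6.09 and a lowest one of 4.95. The median mitotic score of shared sites thus fell with the total score, and a few of the weakest shared sites were close to the lowest mitotic score on these arms. The whole mitotic list, with its other sequences, reached down to 3.5, so 4.95 is not the lower limit of that list.

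The lists have no stated common scale, so mitotic and total scores can be related only through shared peaks. Among the 268 shared peaks above the strongest unmatched score, the ratio of mitotic to total score had a median of 1.51 (interquartile range 1.37 to 1.66) and ranged from 0.920 to 2.15. Multiplied by this median ratio, 474 of the 528 unmatched scores (89.8%) came out above 4.95, the lowest mitotic score on these arms. Above 6.66, the 5th percentile of mitotic scores on these arms, came out 270 (51.1%). With the lowest of the observed ratios, 83 came out above 4.95. The ratio comes from peaks stronger than any unmatched one, and whether it holds at weaker sites without a mitotic peak cannot be seen from the lists. This arithmetic describes the scores and was not tested against read counts, which the lists do not hold. It does not show which unmatched sites could have been detected in mitotic cells.

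The boundary between the classes was sharp in position. The smallest gap between an unmatched peak and a mitotic peak was 98 bp, on the X at 19219614 to 19220430 (score 3.56). It was followed by 170 bp on the X at 12657225 to 12658188 (score 5.32) and 206 bp on 3L at 17468808 to 17469779 (score 3.37). At the other side, the shortest overlap of a shared peak was 387 bp, on the X at 18597714 to 18598593 (score 5.84). The next were 485 bp on 3L at 10218158 to 10218855 and 492 bp on 3L at 19475823 to 19476821. On these arms no total peak thus touched a mitotic peak by only a few bases. Within 1 kb of a mitotic peak lay 11 unmatched peaks, and in each case that mitotic peak overlapped another total peak. This neighbour had the higher total score in 10 of the 11.

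At equal score, unmatched peaks were narrower than shared ones. Unmatched peaks had a median width of 958 bp (interquartile range 910 to 1004 bp) and shared ones 1047 bp (991 to 1131 bp). Shared peaks were also stronger, so widths were compared within score steps of 0.5 that held at least 5 peaks of each class. These steps covered scores from 3 to 7, with 492 unmatched and 321 shared peaks. Weighted by the number of unmatched peaks, the medians were 956 bp for unmatched and 1028 bp for shared peaks, a difference of −71.9 bp. The sign was the same in 8 of 8 steps. The difference was −158.5 bp in the weakest step, which held 6 shared peaks, and −15 bp both at scores from 5 to 5.5 and from 6.5 to 7. It was −45.5 bp without 3L, and −29.5 bp when the weakest 10% of mitotic peaks were left out and the classes were drawn anew.

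Between scores of 4 and 6, where both classes were frequent, unmatched peaks had lower median widths on each arm. The medians were 958 and 1004 bp on 2L, 954 and 1039 bp on 3L, 958 and 999 bp on 3R, and 962.5 and 984 bp on X. The interquartile ranges of the classes overlapped on each arm. Even inside this window the unmatched peaks were weaker, with a median score of 4.77 against 5.26. On all arms together the medians in this window differed by −47 bp, without matching for score inside it. Steps of 0.25, which leave less room for such a gap, were used only for the comparison at equal score that was not limited to this window. There they gave −73.8 bp, against −71.9 bp in the main comparison.

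**Figure D2:**
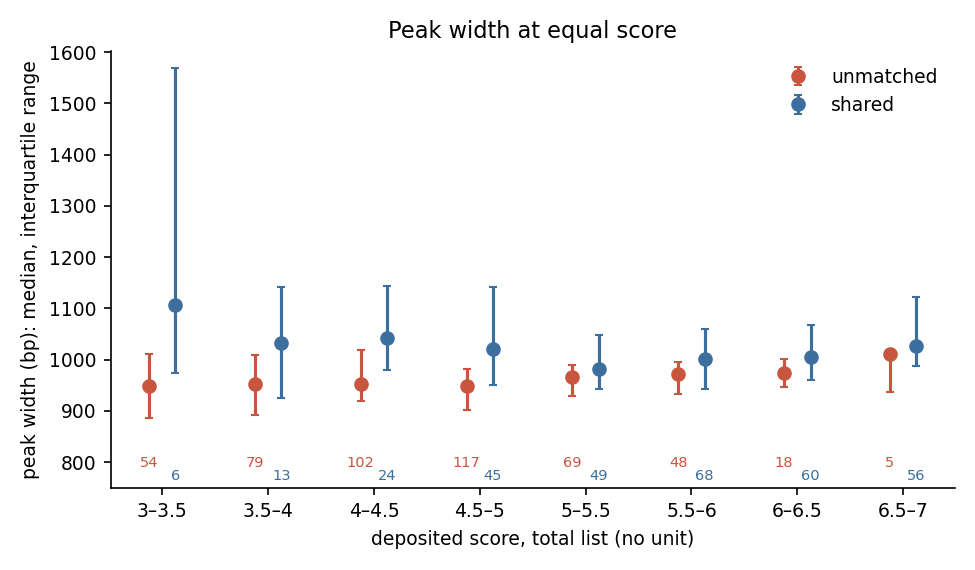
Peak width (bp) against deposited score of the total list, in steps of 0.5, for unmatched and shared peaks on 2L, 3L, 3R and X. Points are medians, bars interquartile ranges over peaks, and the numbers below count peaks. The vertical axis starts at 750 bp. The unmatched median lies below the shared one in 8 of 8 steps, by −158.5 bp in the weakest and −15 bp in the strongest.

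Narrow and wide peaks were also counted, without matching for score. Widths under 850 bp were found for 51 of 528 unmatched peaks (9.66%, exact 95% interval 7.28 to 12.5%). Among the 459 shared peaks with scores up to 8.27, 12 were this narrow (2.61%, 1.36 to 4.52%). Widths over 1200 bp were found for 43 unmatched peaks (8.14%, 5.96 to 10.8%) and for 67 of these shared peaks (14.6%, 11.5 to 18.2%). Across unmatched peaks, width had almost no rank relation to score (Spearman 0.03 over 528 peaks). Across all shared peaks it rose with score (0.35 over 727), but these include the 268 peaks above 8.27, where none was unmatched. Between scores of 3 and 7 the median width of shared peaks did not rise steadily. It was 1106.5 bp in the weakest step and 1026 bp in the strongest. Both coefficients are across peaks of 1 list, which are not replicates, and they cover unlike score ranges.

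The narrowest unmatched peaks lay on 3L at 14975656 to 14976247 (592 bp, score 3.84), on the X at 3634732 to 3635432 (701 bp, score 2.63) and on 2L at 3131606 to 3132322 (717 bp, score 4.68). A small number of unmatched peaks was very wide and mostly weak. The 20 unmatched peaks over 1500 bp had a median score of 3.69, against 7.2 for the 37 shared peaks of such width. The widest were on 3L at 652334 to 655800 (3467 bp, score 2.93), on 3R at 8291685 to 8294094 (2410 bp, score 4.11) and on 3L at 14307172 to 14309434 (2263 bp). The last of these had the lowest score of the total list on these arms, 1.8. Without peaks over 1500 bp in either class, the difference in width at equal score was −54.3 bp.

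The nearest shared peak lay at a similar distance from unmatched and from shared peaks. The gap from an unmatched peak to its nearest shared peak had a median of 33.9 kb (interquartile range 13.6 to 75.8 kb). The gap from a shared peak to the nearest other shared peak had a median of 39.9 kb (13.7 to 86.4 kb). At equal score the weighted medians were 36.5 and 38.5 kb, and the difference changed sign between score steps, being positive in 5 and negative in 3 of 8. The weighted difference of −2045 bp turned to 61.0 bp without 2L. Within 10 kb of a shared peak lay 102 of 528 unmatched peaks (19.3%, exact 95% interval 16.0 to 22.9%) and 135 of 727 shared ones (18.6%, 15.8 to 21.6%). More than 100 kb from any shared peak were 92 unmatched peaks (17.4%, 14.3 to 20.9%) and 142 shared ones (19.5%, 16.7 to 22.6%). These shares differed by less than their intervals. The number of shared peaks within 50 kb differed more. At equal score it had a weighted mean of 0.929 for unmatched and 1.11 for shared peaks, lower for unmatched peaks in 7 of 8 score steps. The widest gap, 1.24 against 2.17, was in the step from 3 to 3.5, which held only 6 shared peaks. The step from 3.5 to 4, with 13 shared peaks, went the other way (0.797 and 0.385). Over all peaks without regard to score the means were 0.932 and 0.935.

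The most isolated unmatched peaks on 3L and X lay near the centromere. On 3L the peak at 24457100 to 24458149 (score 3.52) was 1568 kb from the nearest shared peak, and on the X the peak at 22409019 to 22409952 (score 4.31) was 932 kb away. On 2L the most isolated peak, at 17383695 to 17385065 (score 5.98), was 399 kb from a shared one. On 3R it lay at 7946654 to 7947544 (score 5.52), 286 kb away.

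Distances to other unmatched peaks differed more between the classes. The nearest unmatched peak was a median of 37.2 kb away (interquartile range 13.2 to 107 kb) from an unmatched peak and 54.8 kb (20.1 to 129 kb) from a shared one. At equal score the weighted medians were 38.8 and 62.6 kb, and unmatched peaks had the shorter gap in 6 of 8 score steps. Their difference of −23.8 kb was −14.2 kb with score steps of 1 and −15.7 kb without X. Within 5 kb of another unmatched peak lay 75 unmatched peaks (14.2%, exact 95% interval 11.3 to 17.5%), and 52 of 727 shared peaks lay this close to an unmatched one (7.15%, 5.39 to 9.27%). Within 2 kb these numbers were 32 (6.06%, 4.18 to 8.45%) and 23 (3.16%, 2.02 to 4.71%). Within 5 kb of a shared peak lay 52 unmatched peaks (9.85%, 7.44 to 12.7%) and 89 shared ones (12.2%, 9.95 to 14.8%). Within 2 kb of one lay 24 unmatched (4.55%, 2.93 to 6.69%) and 41 shared peaks (5.64%, 4.08 to 7.57%). At these limits each class thus lay more often near its own class, with overlapping intervals for the gaps to shared peaks. These counts were not matched for score. At equal score, unmatched peaks within 50 kb had a weighted mean of 0.823 for unmatched and 0.707 for shared peaks, higher for unmatched in only 5 of 8 steps. The nearest total peak of either class lay at weighted medians of 18.4 and 23.0 kb, closer to unmatched peaks in 5 of 8 steps.

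**Figure D3:**
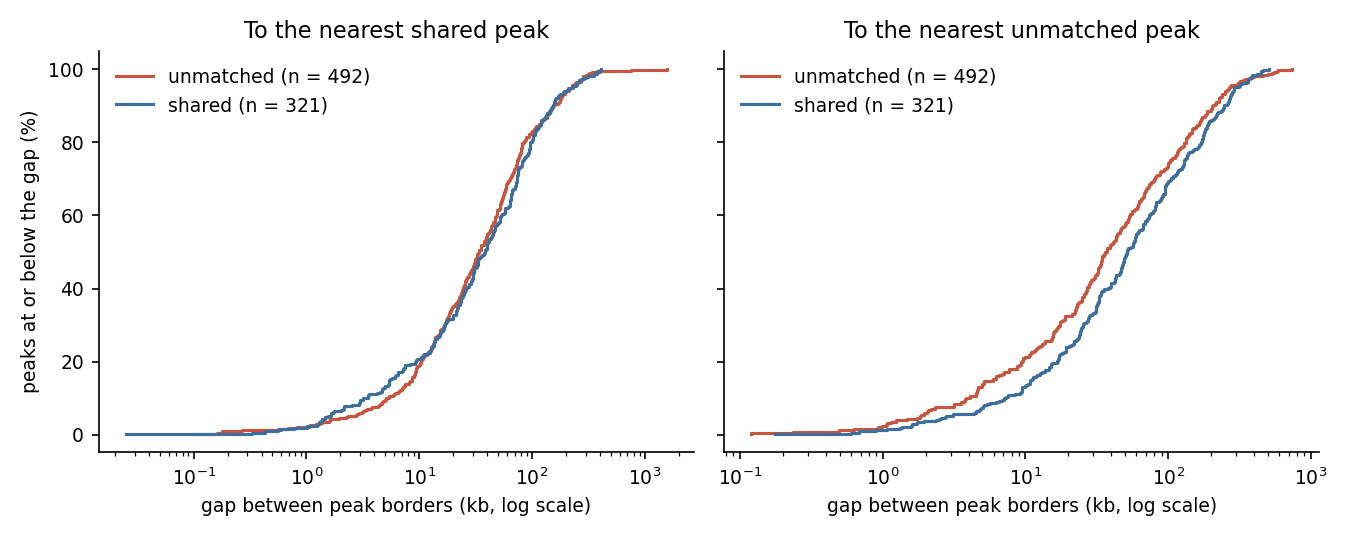
Cumulative share of peaks (percent) by the gap between borders (kb, log scale) to the nearest other shared peak, left, and to the nearest other unmatched peak, right, for the 492 unmatched and 321 shared peaks with scores from 3 to 7 on 2L, 3L, 3R and X. The curves nearly coincide on the left; on the right the unmatched peaks lie at shorter gaps, with weighted medians of 38.8 and 62.6 kb at equal score.

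Unmatched sites had unmatched neighbours somewhat more often than shared sites did, and part of this went with the scores of the neighbours. The next total peak towards higher coordinates was unmatched for 240 of 525 unmatched peaks (45.7%, exact 95% interval 41.4 to 50.1%) and for 287 of 726 shared peaks (39.5%, 36.0 to 43.2%). The intervals overlapped, and the difference was 6.18 percentage points. From the scores of these next peaks alone, taking the share unmatched in each score step, a difference of 3.30 points followed. At equal score of the first peak the shares were 46.0 and 38.2%, with the same sign in 7 of 8 steps. 3L carried much of the difference, which was 2.52 points without that arm, and it was 3.15 points when the weakest 10% of mitotic peaks were left out.

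With the next peak within 50 kb the difference was 6.55 points, and with the next peak farther away it was 5.14 points. Where the next peak lay within 10 kb, a limit chosen after seeing the data, it was unmatched after 59 of 113 unmatched peaks (52.2%, exact 95% interval 42.6 to 61.7%) and after 42 of 113 shared peaks (37.2%, 28.3 to 46.8%). The intervals overlapped, and of these 15.0 points 9.81 followed from the scores of the next peaks. Whether the difference changes with range was not tested. The next peaks at this range had a median score of 5.18 after unmatched and 5.72 after shared peaks.

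In order along the arms the 528 unmatched peaks formed 288 runs, of which 154 held a single peak. Runs of at least 3 numbered 62 and held 230 unmatched peaks (43.6%). Runs of at least 5 numbered 9 and held 54 (10.2%). Of the 727 shared peaks, 463 (63.7%) lay in runs of at least 3 and 287 (39.5%) in runs of at least 5. Run lengths also depend on the share of each class, and 42.1% of all total peaks on these arms were unmatched. No expected number of runs was computed. The longest run of shared peaks had 14 members and the longest unmatched run 8.

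The longest unmatched run lay on 3L from 20096724 to 20809658. Its 8 peaks spread over 713 kb and scored 3.67 to 5.55, all of them within the scores of shared peaks, and the shared peaks on either side scored 6.39 and 5.95. The next were also on 3L, from 7425087 to 8109632 (7 peaks, scores 3.12 to 6.07) and from 14747825 to 15041949 (7 peaks, scores 3.35 to 5.43). On 3R the longest run held 6 peaks from 7069420 to 7416360, with scores of 2.98 to 6.36, and was enclosed by strong shared peaks with scores of 9.13 and 10.41. On 2L it held 5 peaks from 10246621 to 10986680, with scores of 4.39 to 5.29. On the X it held 6 peaks from 21482106 to 22409952, with scores of 2.54 to 6.82. The share unmatched that followed from the scores of their peaks was 60.2 to 76.0% over the runs named here.

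**Figure D4:**
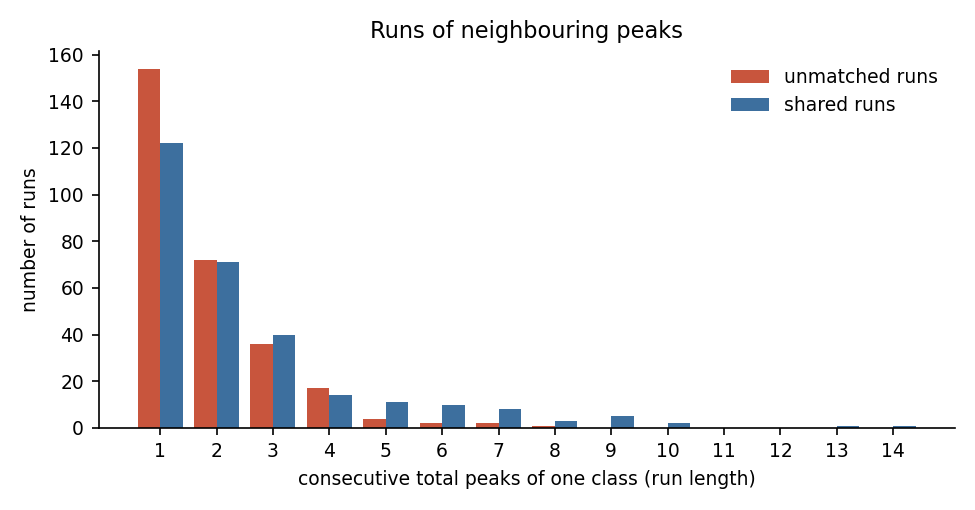
Number of runs by run length, counted as consecutive total peaks of one class along 2L, 3L, 3R and X. Of 288 unmatched runs 154 are single peaks and the longest holds 8, and the longest shared run holds 14.

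Neighbouring sites of opposite class were also compared in pairs. There were 572 pairs of adjacent peaks in which 1 was unmatched and the other shared. The unmatched peak had the higher score in 50 of them (8.74%, exact 95% interval 6.56 to 11.4%), and it was the narrower one in 445 (77.8%, 74.2 to 81.1%). In the 96 pairs within 10 kb these counts were 10 (10.4%, 5.11 to 18.3%) and 82 (85.4%, 76.7 to 91.8%). A peak can enter a pair on each side, so the pairs are not independent. In both selections the unmatched member was mostly the weaker and the narrower one. Over all peaks of the 4 arms unmatched peaks were also weaker (median score 4.45 against 7.31) and narrower (median 958 against 1047 bp). No share for peaks paired without regard to place was computed, so the pairs do not show a difference particular to neighbours. The widths in these pairs were not matched for score. The median of shared minus unmatched score was 2.98 over all pairs and 2.555 over those within 10 kb.

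The 10 close pairs in which the stronger site was the unmatched one were chosen after their values were seen. They include the strongest unmatched site, on 3R at 17313174 to 17314179 (score 8.27). Its shared neighbour at 17307308 to 17308274, 4899 bp away, had a total score of 6.88 and a mitotic score of 9.33. The closest such pair lay on 3L, where the unmatched peak at 3222593 to 3223588 (score 6.24) was 902 bp from a shared one at 3224491 to 3225450 (total score 5.16, mitotic score 8.95). On 3L at 18941914 to 18942895 an unmatched peak scored 5.78, and the shared peak 6909 bp away had a total score of 4.24 and a mitotic score of 6.66. In the other 7 pairs the scores differed by less than in these 3.

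Unmatched sites were spread along all 4 arms. The share unmatched was 47.8% on 3L (144 of 301, exact 95% interval 42.1 to 53.6%), 43.3% on 2L (93 of 215, 36.5 to 50.2%), 40.2% on 3R (159 of 396, 35.3 to 45.2%) and 38.5% on X (132 of 343, 33.3 to 43.9%). Neighbours in this order differed by less than their intervals. The shares of 3L and X, at its ends, each lay outside the other's interval, although these intervals overlapped. The shares that followed from scores were 46.5, 42.1, 41.3 and 39.1% in the same order, within 1.31 percentage points of the observed ones on each arm. The arm with the highest share, 3L, was also the one with the lowest median score of all its peaks, 5.41 against 5.72 to 5.81 on the other arms.

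Along the arms, taken from the telomere to the centromere in 5 equal segments of the span of total peaks, the pooled share unmatched was 40.6, 42.5, 39.2, 42.5 and 44.8%. All of these lay within each other's intervals, the widest apart being 39.2% (32.7 to 45.9%) and 44.8% (39.0 to 50.7%). In the outermost segments of each arm together it was 42.9% (226 of 527, 38.6 to 47.2%) and in the inner ones 41.5% (302 of 728, 37.9 to 45.2%). This difference of 1.40 points turned to −0.0970 without 3L and to −1.55 when the outer 2 Mb at each end were set against the rest. The highest value of a single segment was 58.0% (29 of 50, 43.2 to 71.8%) next to the centromere of 3L, where 54.9% followed from scores. The segment farthest below its value from scores was the middle one of 3R, with 32.9% (26 of 79, 22.7 to 44.4%) against 42.1%.

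**Figure D5:**
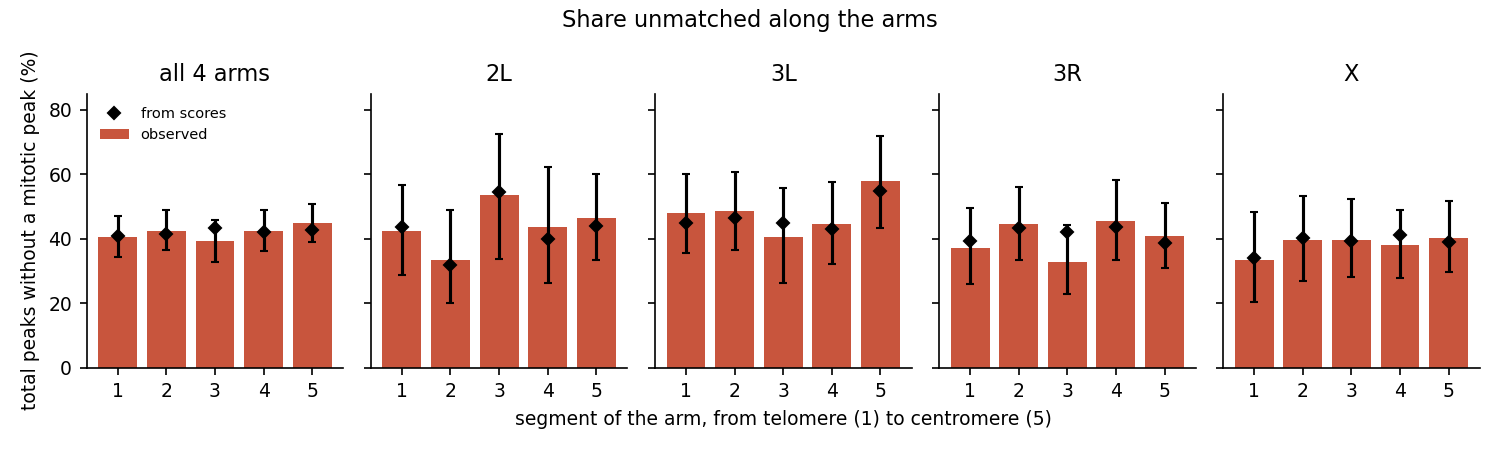
Share of total peaks without a mitotic peak (percent) in 5 equal segments of the span of total peaks, from telomere (1) to centromere (5), for all 4 arms and for each arm. Bars are observed shares with exact 95% intervals, and diamonds the shares that follow from the scores of the peaks in each segment. The pooled bars lie between 39.2 and 44.8%, and the diamonds lie within the intervals.

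The ends of the arms were looked at after the values along the arms were seen. The last 6 total peaks of X and the last 4 of 3L before the centromere were unmatched, the latter from 22974960 to 24458149 with scores of 2.81 to 5.03. On 2L and 3R the outermost peak towards the centromere was shared, with scores of 7.62 and 7.85. Among the 10 total peaks nearest to the centromere, 7 were unmatched on X, 6 on 3L, 6 on 3R and 5 on 2L. The shares that followed from the scores of these peaks were 64.1, 65.8, 42.1 and 49.4%. At the telomere the counts were 3 on X, 5 on 3L, 3 on 3R and 5 on 2L, with 36.1, 51.9, 49.7 and 55.1% from scores.

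On a finer scale, each of the 93 stretches of 1 Mb with at least 5 total peaks held at least 1 unmatched peak. The share unmatched had a median of 40.0% over these stretches, ran from 8.33 to 83.3%, and exceeded 50% in 23 of them. The highest value, 5 of 6 peaks, was on 2L from 10000001 to 11000000, where 60.0% followed from scores. The lowest, 1 of 12, was on 3R from 2000001 to 3000000, where 17.1% followed from scores. Both stretches were picked by their values, and their exact intervals of 35.9 to 99.6% and 0.211 to 38.5% hold the shares from scores. Over the 93 stretches the observed share and the one from scores had a Spearman coefficient of 0.76, which is partly built in because the same peaks gave both.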

How the data were processed

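Peak lists from ChIP-seq of DREF in total and mitotic Kc167 cells were used, 1 list per condition for 2 libraries each. The submitters' processing notes name Bowtie 0.12.5. The genome build, peak caller, calling threshold, use of input and pooling of libraries are not stated there or in the labels. Each deposited row holds a sequence name, start, end and a score with at most 2 decimals and no stated unit. Depth per library is unknown.

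Peaks sharing at least 1 bp were called shared. Classes were compared as medians within score steps of 0.5 with at least 5 peaks of each class, weighted by the number of unmatched peaks. Shares from scores are the mean, over the peaks concerned, of the share unmatched in their score step. Shares carry exact Clopper-Pearson 95% intervals. No p-value was computed, since peaks are not replicates. Functions were tested on simulated lists. The tools were scipy 1.17.1, pandas 2.3.3, matplotlib 3.10.9 and numpy 2.4.6 under Python 3.11.15.

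The peaks named are the 3 strongest unmatched per arm, the 3 widest and narrowest, the 3 nearest to a mitotic peak, the most isolated per arm, the longest runs, and the 3 shared peaks with the lowest scores and with the shortest overlaps. The members, these rules and the comparisons were chosen with earlier results of these data known. Distances to unmatched peaks, adjacent pairs and ends of arms were added after seeing the data. The gene table at hand is of Release 6, so the planned search for the DREF motif and gene names was not run.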

Additional observations from a re-analysis of the deposited data

How the results depend on the processing

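Of 41 alternative values, 37 kept their direction and stayed within the limits set for them. The limits were 1.5 times for the count, 2.77 points from the exact interval for the share unmatched, and the SD over score steps for widths and distances. That SD is wide for distances. For widths it was 49.4 bp, so the change from −71.9 to −29.5 bp without the weakest 10% of mitotic peaks also counted as within the limit. For differences of shares the exact intervals of both shares were combined, giving 5.66 points for next peaks and 5.64 for outer against inner segments. These limits are wide beside the differences themselves, 6.18 and 1.40 points. The number of unmatched peaks was 528 with an overlap of at least 50%, 522 when a mitotic peak within 500 bp counted, and 578 without the weakest 10% of mitotic peaks. The share unmatched was 37.4% without the weakest 10% of total peaks, since that alternative leaves out weak peaks. The difference in distance to the nearest shared peak turned from −2045 bp to 61.0 bp without 2L. The difference between outer and inner segments turned from 1.40 points to −1.55 with the outer 2 Mb at each end, and to −0.0970 without 3L. The cause was not tested for these sign changes. The width difference ranged from −73.8 to −29.5 bp and that in unmatched next peaks from 2.52 to 8.02 points. Chosen after seeing the data were the alternatives for distances to unmatched peaks, those without wide peaks, those without the weakest peaks for widths and neighbours, and those without an arm for segments. No paired analysis was possible because the lists carry no value for a single library; leaving out a library was not possible either. Absence of binding and binding under the detection limit in mitotic cells cannot be told apart, as depth is unknown.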
